A study of Mus musculus with 9 samples.

Results

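The genes described here are 40 marker and regulator genes of endothelium, out of 12393 mouse genes that had a probe set of their own on the array. They were taken by name: every probe set whose platform annotation gave exactly 1 symbol, and that symbol 1 of the 40, was collected (64 probe sets), and the brightest one on average across the 9 arrays stood for the gene. All 40 genes were found, 23 with 1 probe set and 17 with several. RNA came from wild-type embryos of strain 129 at stage E14.5 (Theiler stage 22), of unknown sex, and each structure was microdissected from the kidney by its morphology. Per the labels, staining and RT-PCR were used to check identity and purity. The renal vesicle, the first epithelial body of a nephron, and the s-shaped body, the folded stage that follows it, had 3 arrays each, every one from a pool of 20 structures. The collecting duct, which drains the nephrons and was the submitters' reference, had 3 arrays, each from 1 duct sample. All 9 RNAs were amplified in 2 rounds with T7 polymerase and hybridized to Affymetrix MOE430A arrays.

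Endothelial cells line blood and lymphatic vessels. In the developing kidney they are known to enter the cleft of the s-shaped body beside the future podocytes, where the glomerular capillaries form. Their identity is known to depend on transcription factors of the SoxF, ETS, Tal1/Lmo2/GATA and MEF2 families, on Notch signalling through Dll4 and Notch4, and on surface proteins that hold the cells together or admit leukocytes. Several of these genes are also used by blood cells, so the list does not mark endothelium alone.

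RefSeq promoter windows were found for 21 of the 40 genes, and the 250 bases before the annotated start were searched for 3 core motifs on both strands. The ETS core GGAAGT stood in 4 of the 21 windows (19%) and in 20% of all 27025 promoters of that length. The SOX core ACAATG stood in 1 of 21 (4.76%, Notch4) against 11%, and the GATA core AGATAAG in 0 of 21 against 2.78%. The motif shares of the endothelial genes therefore lay near or below those of all promoters, and a match is a description of letters only. The 4 windows with an ETS core are printed 5′ to 3′ on the strand of the gene, because each belongs to a gene that rose in the s-shaped body, and capitals mark the core on either strand (GGAAGT or its complement ACTTCC). From RefSeq on build GRCm38.p6 they are Tm4sf1 (chr3:57301989-57302238, minus strand), Mef2c (chr13:83503784-83504033, plus strand), Eng (chr2:32646345-32646594, plus strand) and Egfl7 (chr2:26580833-26581082, plus strand), the windows of Mef2c and Egfl7 being the first of 3 annotated starts.
Tm4sf1: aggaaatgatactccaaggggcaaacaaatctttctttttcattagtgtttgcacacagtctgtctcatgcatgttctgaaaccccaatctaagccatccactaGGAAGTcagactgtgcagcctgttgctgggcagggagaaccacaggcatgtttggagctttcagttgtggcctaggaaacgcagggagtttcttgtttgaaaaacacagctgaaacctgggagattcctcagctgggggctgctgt
Mef2c: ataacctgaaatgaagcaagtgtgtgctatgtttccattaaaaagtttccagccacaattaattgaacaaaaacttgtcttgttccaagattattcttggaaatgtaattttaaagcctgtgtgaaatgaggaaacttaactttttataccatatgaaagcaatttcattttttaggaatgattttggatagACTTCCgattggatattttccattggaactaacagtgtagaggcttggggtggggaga
Eng: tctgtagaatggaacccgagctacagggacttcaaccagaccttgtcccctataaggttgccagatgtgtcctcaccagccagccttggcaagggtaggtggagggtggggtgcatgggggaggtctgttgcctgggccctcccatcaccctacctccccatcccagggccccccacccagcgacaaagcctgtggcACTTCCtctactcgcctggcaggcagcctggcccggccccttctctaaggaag
Egfl7: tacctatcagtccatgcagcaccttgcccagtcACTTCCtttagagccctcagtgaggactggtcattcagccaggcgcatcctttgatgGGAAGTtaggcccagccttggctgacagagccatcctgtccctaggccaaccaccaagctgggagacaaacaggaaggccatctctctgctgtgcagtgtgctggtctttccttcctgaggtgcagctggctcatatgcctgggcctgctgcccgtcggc
The window of Egfl7 held the core 2 times and the others held it 1 time.

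The s-shaped body arrays stood apart from both other structures in these genes. The deposited intensities of the 40 genes summed to 51817 to 55587 on the s-shaped body arrays, 3672 to 5119 on the renal vesicle arrays and 6923 to 7631 on the collecting duct arrays, which overlap in no pair of structures. In bulk RNA of this kind, more cells of a type and more RNA per cell cannot be told apart. The ratio of 3' to 5' probe set signal for Gapdh, a measure of RNA shortening, lay between 20 and 32.4 for s-shaped bodies and between 11.6 and 18.6 over the other 6 arrays. The same ratio for Actb overlapped, at 30.1 to 50.9 for s-shaped bodies and 32.2 to 42.5 over the other 6 arrays. The part of RNA length in the differences below was not tested. Renal vesicle replicate 3 carried more podocyte transcripts than the other vesicle arrays, and collecting duct replicate 2 more globin than the other duct arrays, so the counts of the 40 genes called in each comparison are also given without both. The labels were set against marker lists. The s-shaped body arrays held the podocyte markers but had a low sum over the 6 nephron markers (696 to 814 intensity units). That sum was 6676 to 6956 in the renal vesicle and 1525 to 2325 in the collecting duct. Wnt4 alone was called lower than in the duct (mean log2 level 6.33 against 10.51). Lhx1, Jag1 and Dll1 were called higher than in the duct (log2 differences 1.36, 0.87 and 0.90), Pax8 did not pass and Fgf8 was below the filter. Against the vesicle all 5 tested nephron markers were called lower for s-shaped bodies, beside 17.8% of all tested genes. The log2 differences were -4.12 for Lhx1, -4.86 for Wnt4, -2.26 for Jag1, -2.09 for Dll1 and -1.46 for Pax8. The 8 duct markers summed to 33213 to 46419 in the collecting duct, 959 to 1056 for s-shaped bodies and 2867 to 14561 for vesicles. Calb1 and Wnt11 went the other way, called higher in the vesicle than in the duct by 5.01 (SE 0.85) and 1.55 (SE 0.30) log2 units. Calb1 read 12.59, 13.18 and 8.59 on the vesicle arrays and 6.38, 6.49 and 6.44 on the duct arrays. Ret, a duct tip gene, was below the filter, and Aqp2 did not pass in any comparison. Against the vesicle 6 duct markers were called lower for s-shaped bodies, among them Cdh1 (-3.63, SE 0.24) and Epcam (-3.67, SE 0.29).

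Levels are given below as log2 of the deposited intensity plus a pseudocount of 26, quantile normalized, so that 4.70, the log2 of the pseudocount, is the floor and 7.28 the median of each array. Folds on this scale understate the change of dim genes. A gene was tested where it lay above the array median on at least 3 arrays, which 32 of the 40 did, 13 of them through the s-shaped body arrays alone and Edn1 through the collecting duct arrays alone. The 13 were Emcn, Sox7, Sox18, Icam2, Plvap, Tm4sf1, Mef2c, Cd34, Fli1, Dll4, Tal1, Nos3 and Procr. Those 13 and Edn1, 14 in all, had to differ between structures to be tested, and the p-values given for them below carry that limit. The 8 genes not tested were Pecam1, Erg, Notch4, Vwf, Sele, Selp, Lyve1 and Bmx, and they are described with their values and with a fit that used no filter. Called means an adjusted p under 0.05 in limma, adjusted over all 7984 genes tested.

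Setting the s-shaped body against the collecting duct, the reference, shows which endothelial transcripts came with the dissected samples labelled s-shaped body. Of the 40 genes 30 were higher and 2 lower, while 16.9% of all tested genes were called higher and 15.9% lower. With no filter, 32 of 40 were higher and 2 lower, beside 11.6% and 10.8% of 12393 genes, and the median difference over all 40 was 1.75 log2 units against -0.04 over all genes. All 3 s-shaped body arrays lay above all 3 collecting duct arrays for 33 of the 40, beside 16.9% of all genes, and below them for 2, beside 19%. Without renal vesicle replicate 3 and collecting duct replicate 2 the counts were 29 and 2, beside 14.2% and 12.5% of all tested genes.

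The s-shaped body was also compared with the renal vesicle, the stage before it. Here 31 of 40 were called higher, beside 18.5% of all tested genes, and 0 were called lower by limma, beside 17.8%; at an unadjusted p under 0.05 the lower count was again 0. With no filter 33 of 40 were higher, beside 12.5% of all genes, with a median of 2.06 against -0.02, and the groups stood clear of each other for 34, beside 20.3%. Without the 2 arrays named above 30 were higher, beside 17% of all tested genes. Both comparisons share the s-shaped body arrays, so their counts are not independent of each other.

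**Figure D1:**
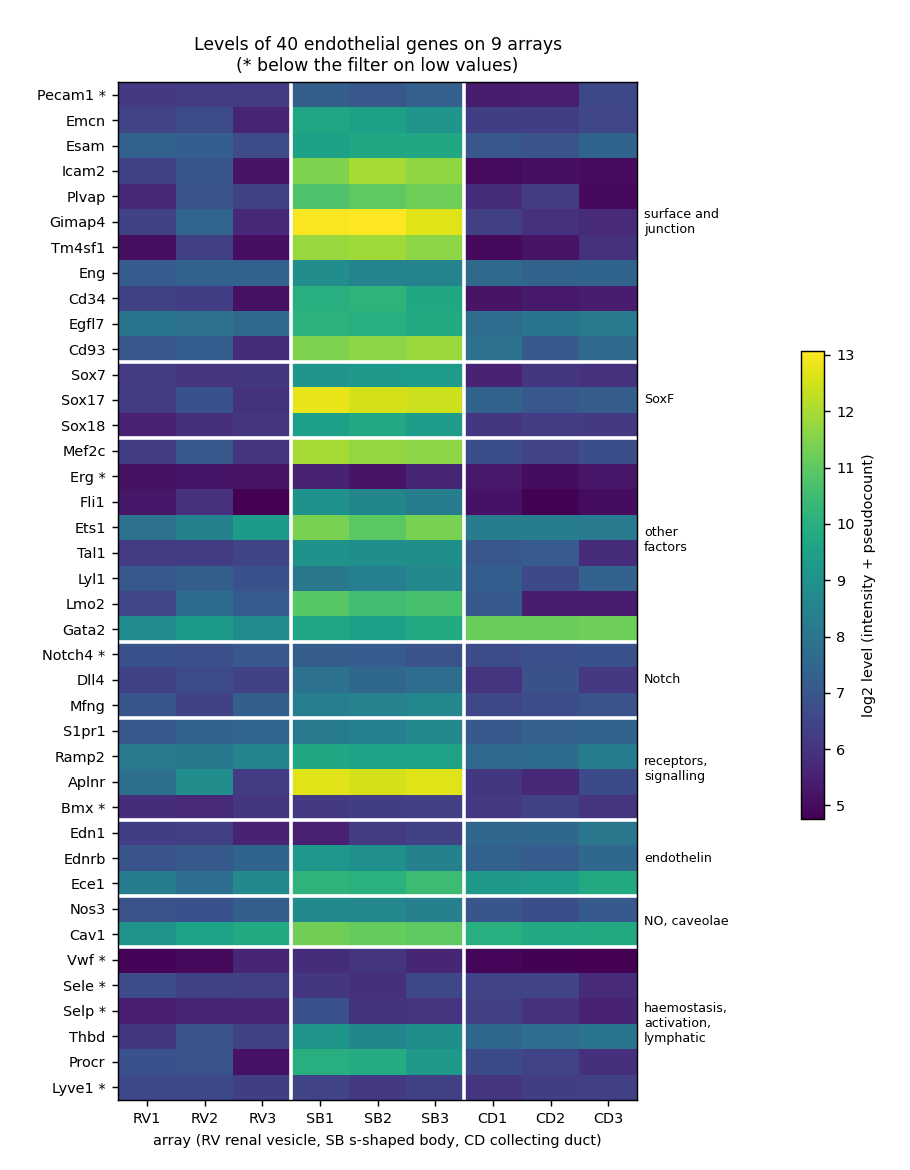
Log2 levels of the 40 genes (rows, grouped by role) on the 9 arrays (columns: RV renal vesicle, SB s-shaped body, CD collecting duct), with colours running from 4.76 to 13.07 and asterisks on the 8 genes below the filter. The 3 s-shaped body columns are brighter for most rows, while Gata2 and Edn1 are brightest in the collecting duct columns.

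Surface and junction genes rose together in the s-shaped body. Of 11 genes, 10 were called higher than in the collecting duct and the same 10 higher than in the renal vesicle. These counts stand beside 16.9% and 18.5% of all tested genes. Pecam1 was not tested, and Emcn, Icam2, Plvap, Tm4sf1 and Cd34 passed the filter through the s-shaped body arrays alone. Gimap4, a GTPase gene known from lymphocytes, read 12.98, 13.07 and 12.68 for s-shaped bodies, 6.39, 7.47 and 5.71 for renal vesicles and 6.33, 5.96 and 5.76 for collecting ducts. The s-shaped body arrays were far above the rest, and the other 2 structures overlapped; the difference from the renal vesicle was 6.39 (SE 0.35, 83.7-fold, adjusted p = 2.1e-07). Tm4sf1, a membrane protein gene of endothelium, read 11.78, 11.87 and 11.61 for s-shaped bodies, 5.10, 6.32 and 5.10 for renal vesicles and 4.98, 5.20 and 5.94 for collecting ducts. It was thus low outside the s-shaped body and 83.3-fold higher there than in the collecting duct (log2 difference 6.38, SE 0.33, adjusted p = 3.5e-08). In the limma fit with no filter the adjusted p was 4.8e-07.

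Icam2, which encodes an adhesion protein bound by leukocyte integrins, read 11.45, 11.98 and 11.68 for s-shaped bodies, 6.39, 6.97 and 5.20 for renal vesicles and 5, 5.09 and 5 for collecting ducts. The 3 structures did not overlap, with the vesicle between the others, and the s-shaped body was 45.7-fold above the vesicle (log2 difference 5.51, SE 0.35, adjusted p = 5.1e-07). Plvap, whose protein forms the diaphragms of fenestrae and caveolae, was 40.3-fold higher than in the collecting duct (5.33, SE 0.34, adjusted p = 1.7e-07), from levels of 10.74, 11.01 and 11.22 against 5.80, 6.21 and 4.96. Cd34, the sialomucin of endothelium and blood progenitors, read 10, 10.17 and 9.74 against 5.19, 5.35 and 5.40 in the collecting duct (25.2-fold, SE 0.31). Cd93, a C-type lectin-like receptor gene, was 17.2-fold above the collecting duct and 30.4-fold above the renal vesicle, both with SE 0.33.

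The other surface genes rose less. Emcn, the endomucin gene, was 8.17-fold higher than in the collecting duct (log2 difference 3.03, SE 0.27) and Esam, an endothelial junction adhesion gene, 5.83-fold (2.54, SE 0.22). The secreted factor gene Egfl7 was 3.99-fold higher (2.00, SE 0.18) and Eng, the co-receptor for TGF-beta and BMP ligands, 2.18-fold (1.12, SE 0.18, adjusted p = 0.00033). By these brightest probe sets Egfl7 and Eng had the smallest differences of the 10, but their other probe sets gave more, 2.96 to 3.51 for the 3 of Egfl7 and 4.78 for that of Eng. Pecam1, the adhesion gene most often used to stain endothelium, stayed below the array median on all arrays but 1: it read 7.27, 7.01 and 7.31 for s-shaped bodies, 6.14, 6.20 and 6.25 for renal vesicles and 5.41, 5.45 and 6.55 for collecting ducts. Its s-shaped body arrays nevertheless lay above all others, and with no filter it was called higher than in the collecting duct (1.39, SE 0.29, adjusted p = 0.0048).

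The 3 SoxF genes, which encode the closely related HMG-box factors of vascular development, all rose in the s-shaped body. Among all tested genes 16.9% were called higher there than in the collecting duct. Sox17 read 12.78, 12.52 and 12.43 for s-shaped bodies, 6.24, 6.86 and 5.97 for renal vesicles and 7.40, 7.02 and 7.21 for collecting ducts. No 2 structures overlapped, and the vesicle was lowest: the s-shaped body was 74.5-fold above it (log2 difference 6.22, SE 0.23, adjusted p = 2.5e-08) and 41.2-fold above the collecting duct (5.36, SE 0.23). Sox18 read 9.44, 9.78 and 9.31 in the s-shaped body against 6.06, 6.23 and 6.16 in the collecting duct (10.3-fold, SE 0.22, adjusted p = 2.0e-07). Sox7 read 9.08, 9.22 and 9.33 against 5.57, 6.11 and 5.95 (10.1-fold, SE 0.21, adjusted p = 1.7e-07). Sox7 and Sox18 did not pass between renal vesicle and collecting duct (0.23 and -0.32, adjusted p = 0.44 and 0.29).

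Among the 8 other transcription factor genes, 6 rose against the collecting duct, Gata2 fell and Erg was not tested. The shares of all tested genes called were 16.9% higher and 15.9% lower. Mef2c, a MADS-box factor of muscle and endothelium, read 11.94, 11.72 and 11.62 for s-shaped bodies, 6.28, 7.09 and 6.03 for renal vesicles and 6.75, 6.43 and 6.76 for collecting ducts. That is 34.7-fold above the collecting duct (log2 difference 5.12, SE 0.25) and 39.2-fold above the renal vesicle (5.29, SE 0.25). Lmo2, whose LIM-only protein bridges Tal1 and GATA factors on DNA, read 10.92, 10.51 and 10.65 in the s-shaped body and was 26.5-fold higher than in the collecting duct (4.73, SE 0.41). Its partners rose less: Tal1 by 2.27 (SE 0.31, adjusted p = 0.0001) and the related bHLH gene Lyl1 by 1.30 (SE 0.25, adjusted p = 0.0013).

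The ETS family genes differed in what their probe sets recorded. Fli1 rose 12.2-fold over the collecting duct (log2 difference 3.61, SE 0.34), from 5.18, 4.80 and 5.04 to 9.04, 8.58 and 8.24. Ets1 rose 8.17-fold (3.03, SE 0.29), and in the renal vesicle it read 7.86, 8.41 and 9.30, with replicates 2 and 3 above every collecting duct array. Erg, an ETS factor that endothelial cells are known to keep throughout life, was below the array median on all 9 arrays, at 5.55, 5.21 and 5.63 for s-shaped bodies and 5.32, 5.02 and 5.26 for ducts. The structures overlapped and the fit without a filter gave 0.27 (SE 0.16, adjusted p = 0.29), from the single probe set of the gene.

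Gata2, a zinc-finger factor of endothelium and blood progenitors, ran against its group. It read 11.19, 11.18 and 11.24 in the collecting duct, 9.69, 9.44 and 9.84 for s-shaped bodies and 8.79, 9.29 and 8.81 in the renal vesicle. The collecting duct was highest, 2.92-fold above the s-shaped body (log2 difference -1.55, SE 0.18, adjusted p = 3.0e-05) and 4.72-fold above the vesicle (-2.24, SE 0.18, adjusted p = 2.2e-06). The s-shaped body lay above the vesicle by 0.69 (SE 0.18, adjusted p = 0.011), a call lost without renal vesicle replicate 1 (0.60, adjusted p = 0.051) and without renal vesicle replicate 3 and collecting duct replicate 2 together (0.62, adjusted p = 0.056). The dimmer of its 2 probe sets gave the same order, with -1.13 (SE 0.29, adjusted p = 0.021) against the collecting duct.

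Of the 3 Notch genes, Dll4 and Mfng rose in the s-shaped body and Notch4 was not tested. The share of all tested genes called higher than in the duct was 16.9%. Dll4, the Notch ligand of arterial and sprouting endothelium, read 7.90, 7.55 and 7.72 against 6.01, 6.81 and 6.15 in the collecting duct (2.64-fold, SE 0.25, adjusted p = 0.00099). Mfng, which encodes a glycosyltransferase that modifies Notch receptors, rose 3.36-fold (SE 0.24, adjusted p = 0.0001). Notch4, a Notch receptor gene of endothelium, depended on the probe set. Its brightest one read 7.22, 7.19 and 6.90 for s-shaped bodies and 6.69, 6.79 and 6.84 for ducts, never above the array median. Its other one, fitted with every probe set and no filter, was 2.18 higher than in the collecting duct (SE 0.20, adjusted p = 2.9e-05) and 2.10 higher than in the renal vesicle (SE 0.20, adjusted p = 6.3e-05).

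Receptor genes rose in the s-shaped body over a wide range. Aplnr, the apelin receptor gene of veins, read 12.66, 12.53 and 12.68 for s-shaped bodies, 7.84, 8.82 and 6.25 for renal vesicles and 6.10, 5.71 and 6.62 for collecting ducts. The s-shaped body was 89.3-fold above the collecting duct (log2 difference 6.48, SE 0.48, adjusted p = 5.6e-07), and vesicle replicate 3 lay within the range of the duct while the other 2 lay above it. Ramp2, whose protein makes the calcitonin receptor-like receptor respond to adrenomedullin, rose 3.39-fold (1.76, SE 0.20). S1pr1, the sphingosine 1-phosphate receptor gene of vessel stability, rose 2.23-fold (1.15, SE 0.20, adjusted p = 0.00069). Bmx, a Tec family kinase gene of arterial endothelium, was below the array median on all arrays, with 6.16, 6.29 and 6.35 for s-shaped bodies and 6.14, 6.41 and 6.01 for ducts (0.08, SE 0.18, adjusted p = 0.81 with no filter).

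The endothelin genes did not move together. Edn1, the peptide ligand gene, was highest in the collecting duct at 7.50, 7.57 and 8.04, while s-shaped bodies read 5.52, 6.19 and 6.41 and vesicles 6.30, 6.32 and 5.57. The fall was 3.17-fold for s-shaped bodies (log2 difference -1.66, SE 0.31, adjusted p = 0.0012) and 3.11-fold in the vesicle (-1.64, SE 0.31, adjusted p = 0.0017), and both nephron structures overlapped (-0.03, adjusted p = 0.96). Ednrb, an endothelin receptor gene, instead rose 2.80-fold in the s-shaped body (1.49, SE 0.23, adjusted p = 0.00033), from 7.33, 7.17 and 7.54 to 9.20, 8.92 and 8.40. Ece1, the enzyme that cuts the precursor to the active peptide, read 10.15, 10.08 and 10.47 in the s-shaped body, 9.21, 9.35 and 9.80 for the duct and 8.27, 7.76 and 8.68 in the vesicle. Its 3.99-fold rise over the vesicle (2.00, SE 0.24) was clear, while the rise over the collecting duct was small (0.78, SE 0.24, adjusted p = 0.027). That call was lost without s-shaped body replicate 1 (adjusted p = 0.056) or 3 (adjusted p = 0.11), without collecting duct replicate 1 (adjusted p = 0.080) or 2 (adjusted p = 0.087), and without renal vesicle replicate 3 and collecting duct replicate 2 together (adjusted p = 0.060).

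Nos3 and Cav1, the endothelial nitric oxide synthase gene and the gene of the caveolar protein that binds it, both rose. Nos3 read 8.71, 8.60 and 8.39 in the s-shaped body against 6.98, 6.75 and 7.10 in the collecting duct (3.08-fold, SE 0.20, adjusted p = 4.3e-05). Cav1, which many cell types express, was above the array median on all 9 arrays, with 11.26, 11.12 and 11.00 in the s-shaped body, 9.97, 9.79 and 9.81 for the duct and 9.05, 9.57 and 9.84 in the vesicle. It rose 2.42-fold over the collecting duct (1.27, SE 0.20) and 3.13-fold over the vesicle (1.64, SE 0.20).

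The genes of haemostasis, leukocyte capture and lymphatic endothelium were mostly dim. Of 6, only Thbd and Procr were tested, and both rose in the s-shaped body, beside 16.9% of all tested genes called higher than in the duct. Procr, the receptor gene for protein C, read 10, 9.88 and 9.24 against 6.64, 6.46 and 5.88 in the collecting duct (10.4-fold, SE 0.42, adjusted p = 4.4e-05). Thbd, thrombomodulin, which lets thrombin activate protein C, read 9.07, 8.57 and 8.89 in the s-shaped body, 7.53, 7.73 and 7.98 for the duct and 6.06, 6.87 and 6.36 in the vesicle. No 2 structures overlapped for Thbd, which was 2.14-fold above the collecting duct (1.10, SE 0.24, adjusted p = 0.0034) and 5.33-fold above the vesicle (2.41, SE 0.24).

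Vwf, Sele, Selp and Lyve1 were below the array median on all 9 arrays. Vwf, the von Willebrand factor gene, read 5.85, 6.02 and 5.65 for s-shaped bodies and 4.89, 4.81 and 4.78 for ducts, and with no filter it was called higher by 1.01 (SE 0.21, adjusted p = 0.0057). The leukocyte-capture genes Sele and Selp gave -0.03 (SE 0.25, adjusted p = 0.95) and 0.34 (SE 0.27, adjusted p = 0.43) against the collecting duct with no filter, and their arrays overlapped. Lyve1, a hyaluronan receptor gene of lymphatic endothelium and some macrophages, gave 0.13 (SE 0.19, adjusted p = 0.71) from its brighter probe set. These values show dim probe sets and do not show that the transcripts were absent.

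**Figure D2:**
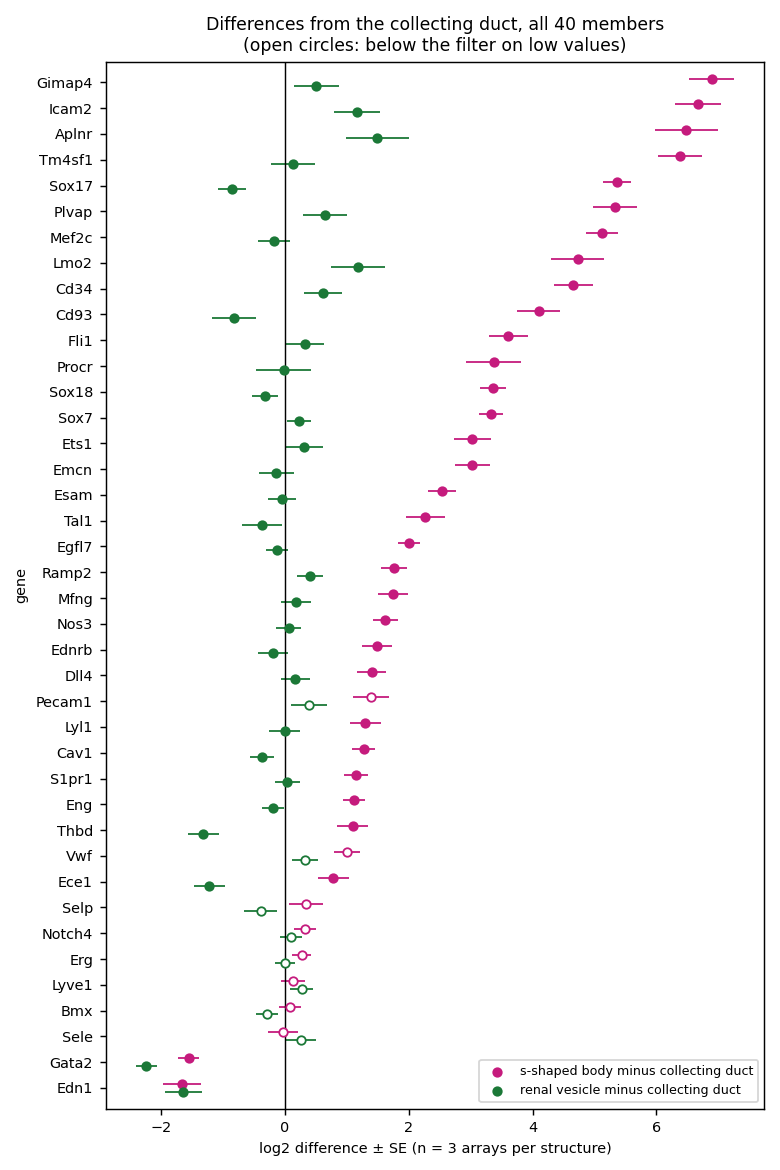
Log2 difference from the collecting duct with its SE for each of the 40 genes (rows, ordered by the s-shaped body difference), for the s-shaped body (magenta) and the renal vesicle (green), from the fit with no filter and 3 arrays per structure; open circles mark the 8 genes below the filter. The s-shaped body values run from -1.66 for Edn1 to 6.89 for Gimap4, while the renal vesicle values run from -2.24 for Gata2 to 1.49 for Aplnr; both share the same collecting duct arrays.

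The renal vesicle was compared with the collecting duct to ask which endothelial transcripts differed from the duct at the earlier stage. Such a difference does not show whether a transcript was present in the vesicle. Ets1, Egfl7, Gata2, Ramp2, Ece1 and Cav1 lay above the array median on all 9 arrays, and none was called higher in the vesicle. Of the 40 genes 3 were called higher and 5 lower, while 15.6% of all tested genes were called higher and 15.9% lower, so the members' shares were below the background in the first case and near it in the second. The median difference over all 40 was 0.02 against -0.01 over all genes. The arrays of the vesicle lay above all those of the duct for 1 of 40, beside 16.5% of all genes, and below for 7, beside 18.1%. Without renal vesicle replicate 3 and collecting duct replicate 2 the counts were 3 higher and 4 lower, beside 10.1% and 11.5% of all tested genes.

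The 3 genes called higher in the vesicle were Icam2 (1.16, SE 0.35, adjusted p = 0.026), Lmo2 (1.18, SE 0.41, adjusted p = 0.044) and Aplnr (1.49, SE 0.48, adjusted p = 0.033), all close to the threshold. With no filter 0 of 40 were called higher by limma, beside 9.73% of all genes, though the same 3 had an unadjusted p under 0.05. Single arrays moved this count. It was 0 without renal vesicle replicate 2 and 0 without collecting duct replicate 2, beside 11.8% and 12% of all tested genes. Without renal vesicle replicate 1 it was 1, beside 12.1%. It was also 1 without s-shaped body replicate 1, beside 14.9%. That array enters this comparison through the shared estimate of spread and the normalization. Without the vesicle replicate 3 and duct replicate 2 together, Icam2 (1.68, adjusted p = 0.0015) and Aplnr (1.98, adjusted p = 0.0017) passed, Cd34 joined them (1.05, adjusted p = 0.012) and Lmo2 did not pass (0.89, adjusted p = 0.25).

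The 5 genes called lower in the vesicle than in the duct were Gata2, Edn1, Thbd (-1.32, SE 0.24, adjusted p = 0.0012), Ece1 (-1.22, SE 0.24, adjusted p = 0.0023) and Sox17 (-0.85, SE 0.23, adjusted p = 0.013). The same count of 5 was found with no filter, beside 10.3% of all genes. Sox17 did not pass without the 2 arrays named above (-0.76, adjusted p = 0.061). Thbd, Ece1 and Sox17 were thus lowest in the vesicle, between in the duct and highest in the s-shaped body, whereas 24 of the 40 did not pass between vesicle and duct and were higher in the s-shaped body than in either.

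The 3 vesicle arrays differed from each other more than the s-shaped body arrays did. The SD over the 3 arrays had a median over the 40 genes of 0.38 for renal vesicles, 0.20 for s-shaped bodies and 0.21 for collecting ducts, against 0.19, 0.19 and 0.26 over all tested genes. It reached 0.7 for 8 of 40 in the vesicle, beside 2.87% of all tested genes: Icam2, Gimap4, Tm4sf1, Cd34, Cd93, Procr, Aplnr and Ets1. Of these, Icam2, Tm4sf1, Cd34, Cd93 and Procr lay below the array median on every vesicle array. Values over the 40 include the genes below the filter, whereas the shares are over tested genes only, so the 2 sets are unlike. Aplnr read 8.82 in replicate 2 and 6.25 in replicate 3, Procr 6.91 and 5.16, and Gimap4 7.47 and 5.71. Ets1 went the other way, with 8.41 in replicate 2 and 9.30 in replicate 3. Replicate 2 was the highest vesicle array for 20 of the 40 genes, beside 29.5% of all tested genes, and the lowest for 7, beside 27.5%. Replicate 1 was the lowest for 17, beside 37.2%, and replicate 3 the lowest for 16, beside 35.3%, and the highest for 14, beside 40.9%. In the duct only Tal1 and Lmo2, 2 of 40, had an SD of 0.7 or more, beside 4.16% of all tested genes. For Lmo2 replicate 1 read 7.05 and the others 5.42 and 5.43.

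**Figure D3:**
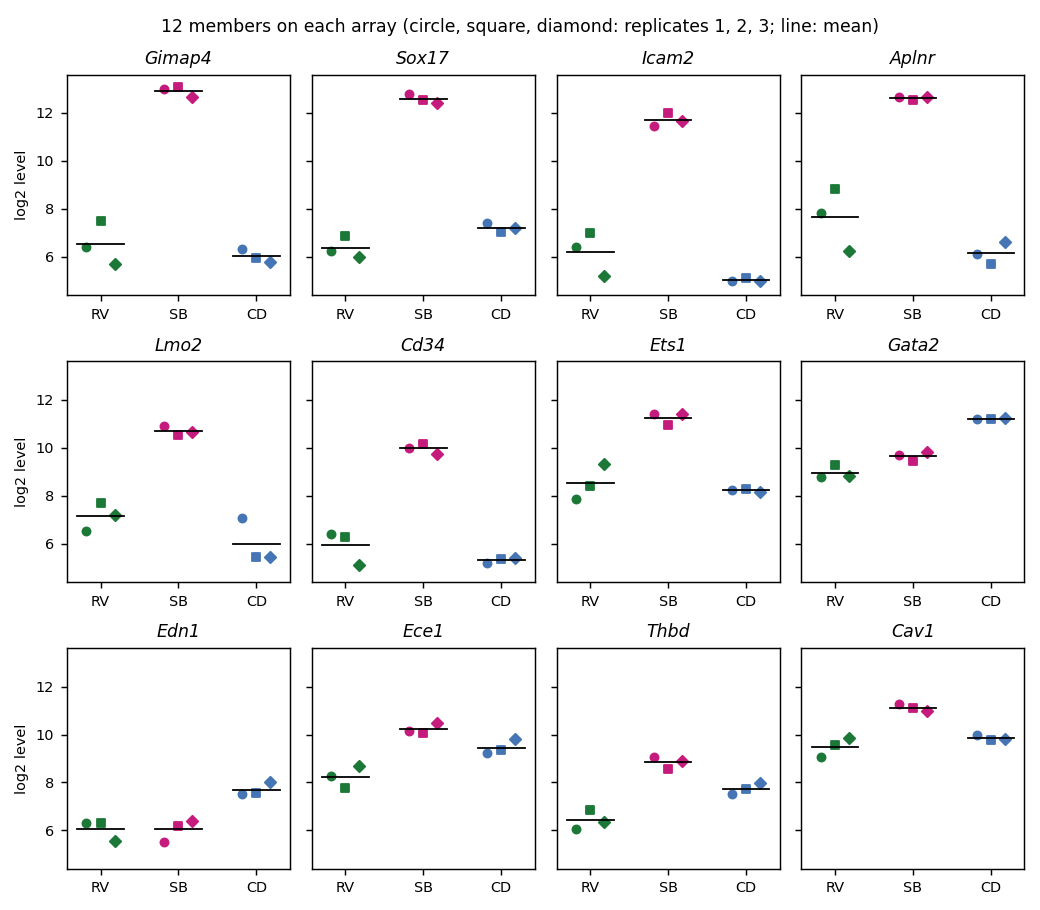
Log2 levels of 12 of the genes on each array (RV renal vesicle, SB s-shaped body, CD collecting duct; circle, square and diamond for replicates 1, 2 and 3; line for the mean of 3). Gimap4, Sox17, Icam2 and Aplnr stand above 11 in the s-shaped body and below 9 elsewhere, and Gata2 and Edn1 are highest in the collecting duct. Among the vesicle points the diamond lies lowest for Gimap4, Sox17, Icam2, Aplnr, Cd34 and Edn1 and highest for Ets1, Ece1 and Cav1.

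The 17 genes with several probe sets allowed a second reading of the same arrays. When each probe set was fitted with no filter, 46 of the 64 were called higher and 3 lower against the collecting duct in s-shaped bodies, beside 9.28% and 8.18% of all 20380 probe sets, and in 0 genes were probe sets called in opposite directions. Against the renal vesicle limma called 49 of 64 higher and 0 lower (0 lower also at an unadjusted p under 0.05), beside 9.95% and 9.5% of all probe sets. In the vesicle against the duct it called 0 of 64 higher and 6 lower, beside 8.18% and 7.89%, and 5 were higher at an unadjusted p under 0.05. In the s-shaped body against the duct, for Aplnr, Dll4, Egfl7, Eng, Fli1, Gimap4 and Sox17 every probe set was called higher, and for Gata2 both were lower. For Cd93, Ednrb, Ets1, Lyve1, Mef2c, Notch4 and Tm4sf1 some were called and others did not pass, and for Ece1 and Selp none passed. The size of a rise depended on the probe set even where the call did not. Eng gave 1.12 (SE 0.18) with its brightest probe set and 4.78 (SE 0.23) with the other, and Aplnr gave 6.48 (SE 0.51) and 2.47 (SE 0.21). Sox17 gave 5.36 (SE 0.23) and 1.62 (SE 0.23), and the vesicle's fall below the duct passed with the first (-0.85, adjusted p = 0.030) and not with the second (0.09, adjusted p = 0.85). Lyve1 was called higher by its dimmer probe set (1.13, SE 0.24, adjusted p = 0.0069) and not by the brighter.

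**Figure D4:**
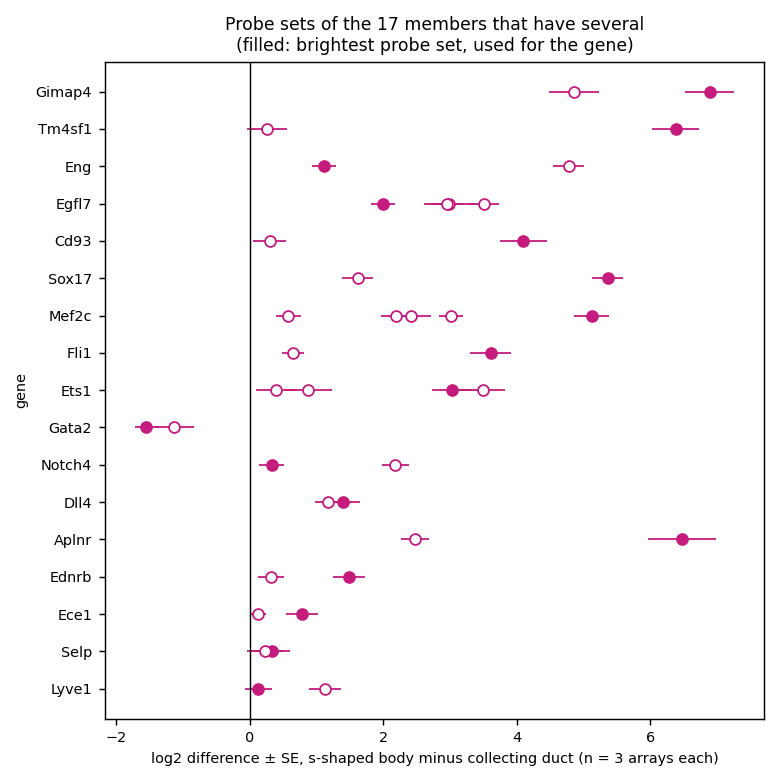
Log2 difference with its SE between s-shaped body and collecting duct (3 arrays each) for each probe set of the 17 genes that have several; filled points are the brightest probe sets, used for the gene. All probe sets of Gata2 lie below 0, those of the other genes above, and an unused probe set shows a larger difference than the used one for Eng, Egfl7, Ets1, Notch4 and Lyve1.

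A list of 30 other endothelial genes was also measured. Of these 26 were on the array and 22 were tested: 19 were higher and 0 lower in s-shaped bodies than in collecting ducts by limma (0 lower also at an unadjusted p under 0.05), beside 16.9% and 15.9% of all tested genes. Against the renal vesicle 17 were higher and 1 lower, beside 18.5% and 17.8%. In the vesicle against the duct 6 were higher (Tek, Cldn5, Nrp1, Nr2f2, Nrarp and Heyl) and 3 lower (Flt1, Efnb2 and Unc5b), beside 15.6% and 15.9%. Kdr, the main VEGF receptor gene, rose 21.5-fold over the collecting duct (log2 difference 4.42, SE 0.18) and did not pass in the vesicle (0.25, SE 0.18). Cdh5, the gene of the endothelial cadherin, rose 7.74-fold (2.95, SE 0.28), and Esm1, a secreted proteoglycan gene of sprouting tips, 11-fold (3.46, SE 0.27). Tek, the angiopoietin receptor gene, was 2.60-fold higher in the vesicle than in the duct (1.38, SE 0.30, adjusted p = 0.0038), and its arrays did not overlap. Cldn5 and Nrp1, which podocytes or other cells also express, were already 6.51 (SE 0.33) and 3.32 (SE 0.28) higher in the vesicle than in the duct. Ephb4, the venous ephrin receptor gene, did not pass against the duct (-0.35, SE 0.29, adjusted p = 0.40). Of 6 defining endothelial markers, Cdh5, Kdr, Tek and Esam rose in the s-shaped body, beside 16.9% of all tested genes called higher than in the duct. Pecam1 and Tie1 were below the filter. Tie1 still read 6.91, 6.29 and 6.67 for s-shaped bodies, above all arrays of the other structures (means 4.82 for vesicles and 4.84 for ducts, near the floor).

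Summed markers of other cell types were also higher on the s-shaped body arrays. The counts below stand beside 16.9% of all tested genes called higher than in the duct. The macrophage and platelet counts rested on 1 gene each, so no rise was read for those lists as sets. Podocyte markers summed to 46771 to 54788 intensity units in the s-shaped body, 2492 to 9878 in the vesicle and 563 to 604 in the duct, with 6 of 6 measured genes higher than in the duct. Mural and stromal markers summed to 11593 to 13213, 1109 to 1893 and 1157 to 1352 in the same order, with 6 of 8 higher and Dcn below the filter. Erythroid markers summed to 18386 to 22038, 537 to 2756 and 168 to 2510, with 3 of 5 measured higher and Hbb-bh1 below the filter. Macrophage markers summed to 3208 to 3855, 396 to 711 and 761 to 905, but of 7 only Csf1r was higher than in the duct, and C1qa, C1qb, Cd68, Tyrobp and Fcer1g were below the filter. Megakaryocyte and platelet markers summed to 1115 to 1331, 437 to 571 and 687 to 741, with 1 of 5, Pf4, higher, Itga2b not past the threshold (-0.13, adjusted p = 0.67) and Gp9 and Ppbp below the filter. Blood cells and their progenitors are known to express Tal1, Lyl1, Lmo2, Gata2, Fli1 and Cd34. The part of all these cell types in the differences was not tested.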

How the data were processed

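Transcript levels of 3 structures (3 arrays each) were read from the series' value table, which holds 22690 probe sets, 64 of them controls. The values the authors deposited are intensity on a linear scale; per the submitters' processing notes GCOS was used, and its version and algorithm are not given in the sources used here. Trimmed means (2% at each end) of 500.2 to 500.3 show that the arrays were scaled. The number of arrays limits the precision.

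From these, log2(intensity + 26) was taken (26 is the 20th percentile of all values), the arrays were quantile normalized, 1 probe set per gene was chosen by highest mean from the 20380 with 1 symbol in the platform annotation of 2016, and genes above the array median on at least 3 arrays (7984) were kept. limma 3.58.1 under R 4.3.3 gave two-sided tests of the differences (eBayes with trend, all 9 arrays, 6 residual degrees of freedom, no covariates), with Benjamini-Hochberg adjustment within each comparison. The procedure was tested on simulated data. Per the labels each array is a biological replicate; whether they came from separate embryos is not stated, so p-values measure the spread between these samples. Members, lists and tests were chosen with earlier results of these data known. All members are named, with values by array at least for the largest s-shaped body differences of each role and for members against their group; of the other endothelial list, examples are named. Alternatives were other pseudocounts, scalings, filters and probe set orders, no trend, fits of 2 groups, the replicate number as a block, and arrays left out; the fit of each probe set was added after seeing the data.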

Additional observations from a re-analysis of the deposited data

How the results depend on the processing

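Of 1887 values of tested members under the alternatives, 1844 kept their call, 36 lost it, 7 gained one and 0 reversed. Against the collecting duct the s-shaped body had 30 members higher, 29 to 30 when 1 array was left out, 20 under the stricter filter and 32 with none; against the renal vesicle it had 31, with 30 to 31, 21 and 33. The lower members of the s-shaped body against the duct were 2 in every leave-one-out fit, beside 12.4% to 17.1% of all tested genes. They were 1 under the stricter filter, beside 17.4%, which left 4592 genes and did not test Edn1. Lower members against the vesicle were 0 in all settings, beside 11.5% of all genes with no filter and 22.3% under the stricter filter.

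The vesicle against the duct depended most on the settings. Its 3 higher members became 1 with a pseudocount of 100 and 1 with no further normalization, beside 15.9% and 14.2% of all tested genes. They became 0 with no filter and 0 in a fit of the 2 groups, beside 9.73% and 13.4%. With 1 array left out they were 0 to 4, beside 11.8% to 16.3%. Its 5 lower members became 3 under the stricter filter, beside 18.9%, and were 5 to 6 with 1 array left out, beside 12.5% to 16.4%. When every probe set of a gene had to be called, 0 were higher and 3 lower, with no share over all genes taken. The cause was not tested. Under median centring the median difference over all genes was 0.11 in the vesicle against the duct (0.01 as reported) and -0.11 in the s-shaped body against the vesicle (-0.03 as reported), and no tested member's call changed. The shares of all tested genes called in the vesicle against the duct became 19.5% higher and 13.1% lower, from 15.6% and 15.9%.

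With the replicate number as a block, members higher and lower were 2 and 5 in the vesicle against the duct, beside 16.2% and 16.4% of all tested genes. They were 30 and 2 in the s-shaped body against the duct, beside 16.8% and 16.2%. Against the vesicle they were 31 and 0, beside 18.9% and 18.5%. Lmo2 lost its call (1.18, adjusted p = 0.055) and no other call changed. Deviations of same-numbered arrays correlated by -0.04 to 0.16 across genes, so the numbers were not taken to pair the samples.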
